A study of Mus musculus with 14 samples.

Results

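Control hindstomach epithelium was compared with control forestomach epithelium of mouse embryos at stage E14.5, using the 6 control libraries among the 14 of the series. The 6 were picked out by their labels, as 3 hindstomach controls (replicates 2, 3 and 4) and 3 forestomach controls (replicates 2, 3 and 5). The comparison itself was chosen with earlier results of these data known. The source names call both groups wild type. The genotype labels call the hindstomach group the controls of a GATA4 conditional knockout ("G4 cKO") and the forestomach group the controls of a GATA4 conditional knock-in ("G4 cKI"). Region and cross therefore cannot be told apart. The other 8 libraries were 5 hindstomachs labelled as GATA4 knockout (replicates 1 to 5) and 3 forestomachs labelled as GATA4 knock-in (replicates 1, 2 and 4). The labels do not name the Cre driver, the alleles that the controls carry, or the number of embryos behind a library, so p-values measure the spread between these libraries only, which may be technical.

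The mouse stomach is lined by different epithelia along its length. The hindstomach, comprising corpus and antrum, has a columnar glandular epithelium that forms mucous, enzyme-secreting, acid-secreting and hormone-producing cells. The forestomach has a stratified squamous epithelium like that of the oesophagus, with a basal layer that depends on the transcription factor p63 and upper layers that build tough keratin filaments and, after birth, a cornified surface. At mid-gestation both arise from foregut endoderm surrounded by mesenchyme, whose signals help to set the regional boundary.

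Levels were deposited as FPKM, fragments scaled by transcript length and by library total, so values of different genes can be set side by side and absolute depth is unknown. Relative depth of the 6 control libraries ranged from 48.9% to 100% of the deepest, and 10432 to 12387 genes per library stood at an FPKM of at least 1. The hindstomach controls correlated with each other at 0.979 to 0.9903 across genes (Pearson, log2 scale), and forestomach controls 2 and 3 at 0.970. Forestomach control 5 stood apart, at 0.775 with control 2 and 0.819 with control 3. Its correlations with the libraries labelled knock-in 1, 2 and 4 were 0.967, 0.949 and 0.9218. With the hindstomachs labelled knockout 1 to 5 they were 0.9438, 0.9278, 0.9501, 0.8719 and 0.787. High correlations of forestomach control 5 were thus not particular to the knock-in label. Of 9356 genes with an FPKM of 5 or more in a forestomach control, 2959 were lower in control 5 than in both others by at least 1 on the log2 scale, whereas the other 5 control libraries had 2 to 23 such genes. Relative to each gene's mean over the 14 libraries, its log2 FPKM fell with transcript GC content, by 0.63 per 10% GC. On the same relative scale it climbed in the other 5 control libraries by 0.59 to 0.88. The glycolytic gene Gapdh measured 184, 153 and 176 FPKM in hindstomach controls 2, 3 and 4, against 194, 114 and 3.11 FPKM in forestomach controls 2, 3 and 5, the order in which all values of 3 libraries are given here. Transcripts used to tell sex differed too: Xist measured 183, 258 and 206 FPKM in hindstomach and 49.6, 136 and 0.341 FPKM in forestomach, and the Y-linked Eif2s3y 0, 0 and 0.0371 FPKM in hindstomach and 0.0464, 0 and 78.4 FPKM in forestomach. A transcript of the Rosa26 locus, Gt(ROSA)26Sor, measured 25.3, 28.6 and 21.8 FPKM in hindstomach and 0.591, 1.01 and 28.0 FPKM in forestomach, so forestomach control 5 had the hindstomach level and the other forestomach controls did not. Calls of named genes and counts of gene lists are therefore also given without forestomach control 5 where they change.

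On log2(FPKM + 1) values, limma called 1231 of 12694 genes higher in control hindstomach and 1352 lower at a Benjamini-Hochberg adjusted p under 0.05, which is 9.7% and 10.7% of the genes tested. The log2 difference reached 1 or more for 738 of the higher genes and 4 or more for 44 of them. Among the lower genes 942 reached a difference of 1 and 11 a difference of 4. In 2916 genes (23.0%) all 3 hindstomach values lay above all 3 forestomach values, and in 2342 (18.4%) all lay below. Of the called genes, 1226 higher and 1335 lower were free of overlap in this sense. The median difference of all genes tested was 0.14 with all 6 libraries and -0.05 without forestomach control 5, and rescaling by quantiles put it at 0.03. Leaving out forestomach control 5 gave 1004 higher and 1297 lower genes, of which 906 and 1051 were among those called with it, and no gene was called in the opposite direction. Without hindstomach control 4 the counts were 755 and 777, and the 6 control libraries fitted alone gave 662 and 769. In that fit 93 of the 319 called genes that are named or on a list lost their call (adjusted p = 0.0514 to 0.219). Of those described here these were Cela1, Cldn7, Dll4, Epcam, Erbb3, Fzd7, Gata6, Hnrnpf, Lamc1, Lgr4, Lrp6, Nedd4 and Pgk1 among higher genes. Among lower genes they were Barx2, Btf3, Cbr2, Cldn15, Cobl, Gcnt1, Grhl3, Hes1, Hspb1, Jag2, Krt4, Krt13, Scg5, Sfrp1, Snrpe, Tgm1 and Wnt4.

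A gene was tested if it had an FPKM of at least 1 in 3 or more of the 14 libraries, and some genes met this only through the region where they were high. Of the higher genes 141 lay under 1 FPKM in every forestomach control and would not have been tested without the hindstomach controls, and of the lower genes 146 likewise depended on the forestomach controls. The filter favoured a difference in such genes, so their calls, and the counts and medians of lists that hold them, are descriptions. A further 39 genes on the hindstomach side and 136 on the forestomach side passed in the same way and were not called. The called ones among the genes described here were Pgc, Pga5, Tff1, Tff2, Tff3, Gkn3, Muc5ac, Ern2, Atp4b, Kcne2, Kcnq1, Apoa1, Vil1, Myo1a, Spdef, Nr1i2, Pdx1, Fgfr4 and Dll4 on the hindstomach side. On the forestomach side they were Krt13, Krt6a, Lor, Pkp1, Dsg3, Barx2, Cbr2, Wif1, Fzd10, Jag2 and Hoxb6. The gastric secreted list held 7 of them, the columnar factor list 5, the acid list 4 and the squamous factor list 4. The stratified keratin, squamous differentiation, desmosome, microvillus, mucous and Wnt lists held 3 each, counting genes that were not called.

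**Figure D1:**
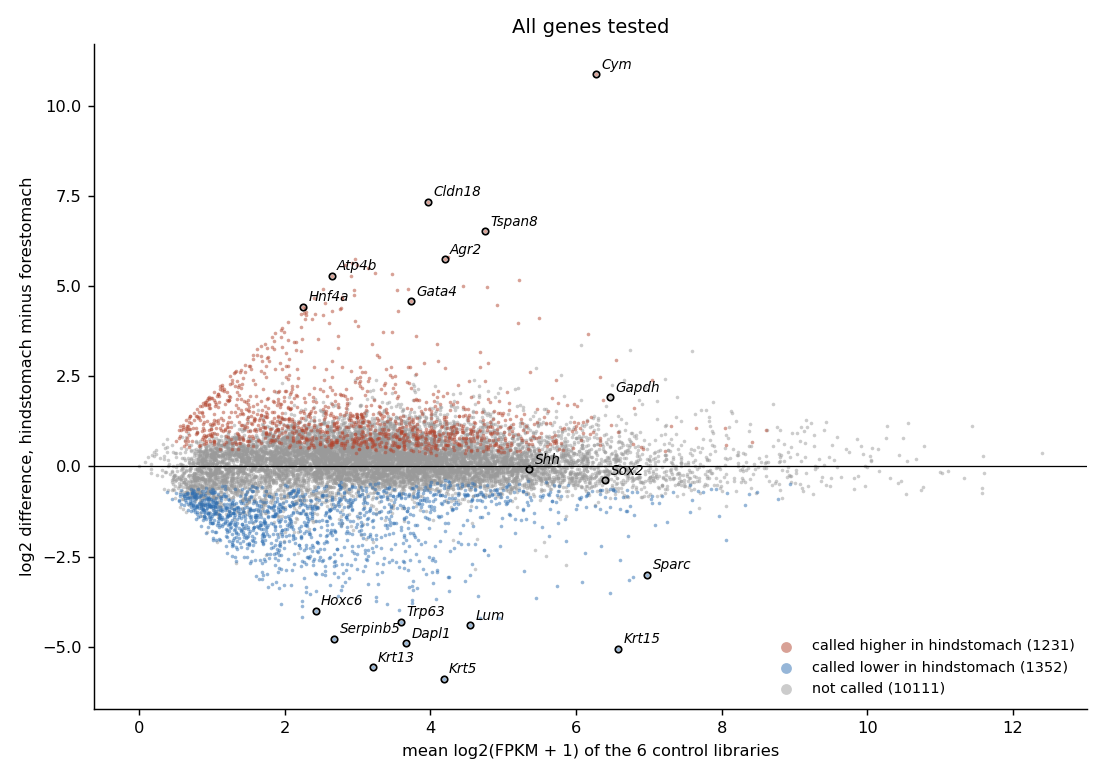
Each point is a gene, with its mean log2(FPKM + 1) over the 6 control libraries on the horizontal axis and the log2 difference, control hindstomach minus control forestomach, on the vertical axis. The 1231 genes called higher and the 1352 called lower are coloured, the other 10111 are grey, and the named points at the top and bottom are Cym, with the largest difference of all genes drawn, and the squamous keratins.

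The 3 hindstomach markers and 2 forestomach markers given for these epithelia all bore out the region labels. Cym, which encodes the milk-clotting protease chymosin, measured 3555, 1776 and 5947 FPKM in hindstomach, against 1.49, 1.20 and 0.0512 FPKM in forestomach (log2 difference 10.87 ± 0.88, adjusted p = 7.99e-06). Cldn18, a claudin of the gastric tight junction, measured 229, 131 and 257 FPKM in hindstomach and 0.213, 0.521 and 0 FPKM in forestomach, where control 5 was at 0 (log2 difference 7.34 ± 0.43, adjusted p = 5.89e-07). For both genes hindstomach control 3 was the lowest of its group, and no hindstomach value came near a forestomach value. Tspan8, a tetraspanin of digestive epithelia, measured 288, 227 and 255 FPKM in hindstomach and 1.65, 2.23 and 1.58 FPKM in forestomach (log2 difference 6.52 ± 0.27, adjusted p = 4.07e-08), with little spread in either group. Krt5, the type II keratin of basal squamous cells, measured 1.94, 1.29 and 0.973 FPKM in hindstomach, against 301, 381 and 22.4 FPKM in forestomach (log2 difference -5.88 ± 1.03, adjusted p = 0.00153, and -7.17 without forestomach control 5). Trp63, the gene of p63, measured 2.95, 1.61 and 0.949 FPKM in hindstomach and 35.4, 66.8 and 61.2 FPKM in forestomach (log2 difference -4.30 ± 0.57, adjusted p = 0.000235). Forestomach control 5 thus held Trp63 at the level of its group while its Krt5 stood more than 10-fold below the other forestomach controls and above every hindstomach value.

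**Figure D2:**
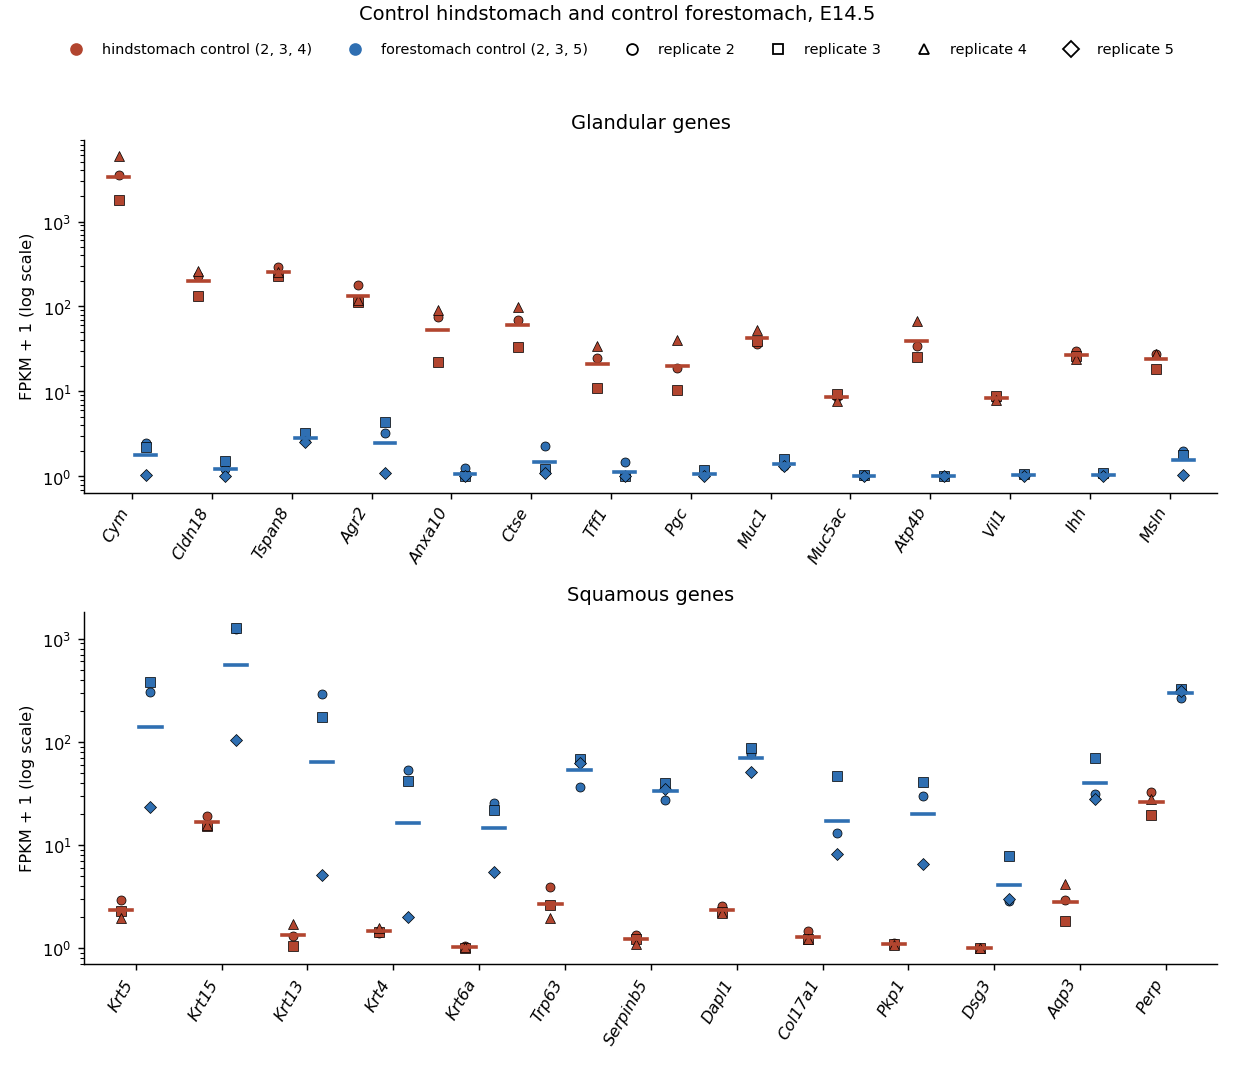
FPKM + 1 on a log axis for 14 glandular genes and 13 squamous genes, 1 point per library, hindstomach controls left of forestomach controls, with a bar at the geometric mean of each group. The glandular genes separate the regions in all 6 libraries, and among the squamous genes forestomach control 5 lies below the other forestomach controls for the keratins but not for Trp63 or Serpinb5. The genes drawn were picked with results known, many for their large differences. Some passed the filter only through the region where they were high, so the separation is a description.

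The 250 bases before the start of genes at the ends of this contrast are shown, since binding sites for GATA factors and for AP-1 are textbook features of gastric and of squamous genes. They come from the RefSeq tables of GRCm38.p6, which is not the mm9 build of the deposited values, and 117 of the 170 genes described under the naming rule had an entry. Capitals mark AGATAA in the first 3 sequences and TGANTCA in the last pair, each searched on both strands, and the genes shown were picked after their values and matches were seen. Cldn18 and Krt13 have a pair of entries each, of which the start with more matches is shown. The start not shown held 0 matches for Cldn18 and 1 for Krt13. Which start is used in stomach was not tested. The intervals of the hindstomach genes are chr3:107221733-107221982 on the minus strand for Cym, chr9:99717268-99717517 on the minus strand for Cldn18 and chr13:4233490-4233739 on the plus strand for the aldo-keto reductase Akr1c19. Those of the forestomach genes are chr15:101712906-101713155 on the minus strand for Krt5 and chr11:100120578-100120827 on the minus strand for Krt13, the keratin of the upper layers of mucosal squamous epithelium.
Cym: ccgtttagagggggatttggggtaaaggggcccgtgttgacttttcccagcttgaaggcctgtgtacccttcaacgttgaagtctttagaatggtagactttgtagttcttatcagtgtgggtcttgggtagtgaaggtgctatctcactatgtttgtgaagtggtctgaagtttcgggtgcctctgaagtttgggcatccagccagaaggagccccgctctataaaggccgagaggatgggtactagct
Cldn18: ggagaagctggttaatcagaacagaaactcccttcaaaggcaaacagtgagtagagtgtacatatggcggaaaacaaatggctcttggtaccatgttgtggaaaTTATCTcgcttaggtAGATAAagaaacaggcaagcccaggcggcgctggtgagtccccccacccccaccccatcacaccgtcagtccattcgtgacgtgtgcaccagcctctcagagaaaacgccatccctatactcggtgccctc
Akr1c19: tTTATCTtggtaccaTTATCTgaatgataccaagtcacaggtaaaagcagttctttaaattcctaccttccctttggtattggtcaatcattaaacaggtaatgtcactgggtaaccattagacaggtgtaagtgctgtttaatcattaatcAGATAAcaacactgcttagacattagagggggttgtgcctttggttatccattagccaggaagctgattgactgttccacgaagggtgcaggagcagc
Krt5: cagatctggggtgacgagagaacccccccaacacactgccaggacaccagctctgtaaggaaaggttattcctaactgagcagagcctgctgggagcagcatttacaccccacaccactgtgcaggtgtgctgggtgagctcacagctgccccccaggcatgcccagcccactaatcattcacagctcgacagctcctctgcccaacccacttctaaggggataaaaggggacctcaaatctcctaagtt
Krt13: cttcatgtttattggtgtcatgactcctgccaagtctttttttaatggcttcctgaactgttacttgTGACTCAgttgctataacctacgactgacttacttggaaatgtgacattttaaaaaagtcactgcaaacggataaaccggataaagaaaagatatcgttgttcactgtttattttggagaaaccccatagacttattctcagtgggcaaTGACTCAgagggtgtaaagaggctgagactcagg
AGATAA or its reverse complement lay in the window of 9.08% of the genes called higher in hindstomach that had an entry, 8.68% of those called lower, 6.96% of genes tested and 11.4% of all genes with an entry. TGANTCA lay in 7.64% of the higher and 7.64% of the lower genes, 5.21% of genes tested and 7.82% of all genes with an entry. The windows of Cym and Krt5 held no match to the letters searched in them, whereas that of Akr1c19 held 3 matches. The windows shown for Cldn18 and Krt13 held 2 each.

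Secreted products of the gastric mucosa formed the list with the highest median difference, hindstomach minus forestomach. Of 12 such genes tested, out of 20 listed, 11 were higher in hindstomach and 0 lower, with a median log2 difference of 3.99 against 0.14 for all genes. Their summed FPKM was 3950.1, 1950.1 and 6571 in hindstomach and 25.7, 36.4 and 27.2 in forestomach, with Cym alone making up most of the hindstomach sum. Ctse, the aspartic protease cathepsin E, measured 68.5, 32.0 and 96.9 FPKM in hindstomach and 1.31, 0.232 and 0.112 FPKM in forestomach (log2 difference 5.37 ± 0.56, adjusted p = 4.42e-05). Bpifb1, a secreted protein of mucosal surfaces, measured 191, 59.1 and 317 FPKM in hindstomach and 6.16, 8.76 and 0.668 FPKM in forestomach (log2 difference 4.98 ± 0.83, adjusted p = 0.00107). Both genes were lowest in hindstomach control 3, and for both the groups were far apart. The pepsinogen genes were present at low levels. Pga5 measured 11.4, 7.19 and 27.2 FPKM in hindstomach and 0, 0.121 and 0 FPKM in forestomach (log2 difference 3.77 ± 0.34, adjusted p = 1.74e-05). Pgc, progastricsin, measured 18.1, 9.51 and 39.5 FPKM in hindstomach and 0.0609, 0.186 and 0 FPKM in forestomach. Among the trefoil peptides, which protect mucosal surfaces, Tff1 measured 23.9, 9.98 and 33.1 FPKM in hindstomach and 0.475, 0 and 0 FPKM in forestomach (log2 difference 4.21 ± 0.41, adjusted p = 3.09e-05). Tff2 (3.06, adjusted p = 2.73e-05) was higher too, and Tff3 measured 4.34, 3.97 and 7.81 FPKM in hindstomach while listed at 0 in forestomach. Gkn3, a gastrokine, measured 2.90, 2.72 and 2.81 FPKM in hindstomach and was likewise listed at 0 in all 3 forestomach controls. The spread within hindstomach ran in parallel across these genes, since Cym, Ctse, Bpifb1, Pga5, Pgc, Tff1, Tff2 and Clps (colipase, the cofactor of pancreatic lipase, at 38.4, 17.2 and 55.7 FPKM) were each highest in control 4 and lowest in control 3.

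Mucous and goblet-type genes followed the same direction. Of 15 tested out of 25 listed, 13 were higher in hindstomach and 1 lower (median 1.76, and 13 higher and 0 lower without forestomach control 5). Agr2, a disulphide isomerase needed for mucin folding, measured 177, 112 and 119 FPKM in hindstomach and 2.25, 3.42 and 0.0926 FPKM in forestomach (log2 difference 5.75 ± 0.52, adjusted p = 1.82e-05). Anxa10, an annexin characteristic of the gastric mucosa, measured 74.2, 21.1 and 89.0 FPKM in hindstomach and 0.244, 0 and 0 FPKM in forestomach (log2 difference 5.63 ± 0.56, adjusted p = 3.59e-05), with forestomach controls 3 and 5 at 0. Muc1, a transmembrane mucin, measured 34.7, 38.3 and 52.5 FPKM in hindstomach and 0.339, 0.617 and 0.315 FPKM in forestomach (log2 difference 4.90 ± 0.34, adjusted p = 2.21e-06). In each of these genes all 3 hindstomach values lay far above the forestomach values. Muc5ac, the secreted mucin of gastric surface cells, measured 7.58, 8.36 and 6.82 FPKM in hindstomach, against at most 0.0362 FPKM in forestomach (log2 difference 3.07 ± 0.34, adjusted p = 6.9e-05). Tspan1, a second tetraspanin of this list, differed by 5.33 (adjusted p = 1.51e-05). Ern2, the stress sensor of mucous cells on the secretory list, measured 5.20, 4.01 and 6.23 FPKM in hindstomach and 0, 0.0269 and 0 FPKM in forestomach (log2 difference 2.59 ± 0.38, adjusted p = 0.000464). The secretory list as a whole differed little, with 3 of 24 genes higher and 1 lower (2 and 1 without forestomach control 5). Gcnt1, a branching enzyme of O-glycans, was the mucous gene called lower (-0.82, adjusted p = 0.0376). Its call was lost without hindstomach control 2, 3 or 4, forestomach control 2 or 5, hindstomach knockout 3 or forestomach knock-in 1 (adjusted p = 0.0509 to 0.131, leaving out each in turn).

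Genes of the acid-secreting machinery were present at modest levels at this stage, mostly with higher values in hindstomach. Atp4b, which encodes the beta subunit of the proton pump of parietal cells, measured 33.5, 24.3 and 66.8 FPKM in hindstomach and was listed at 0 in all 3 forestomach controls. The catalytic subunit gene Atp4a stood at 0.929, 0.471 and 3.17 FPKM in hindstomach and 0.0786, 0.0685 and 0 FPKM in forestomach and did not pass the filter on low values. In total 9 of 14 acid and ion transport genes tested, of 18 listed, were higher in hindstomach and 2 lower (median 2.29, and 9 higher and 1 lower without forestomach control 5). Aqp4, the parietal cell water channel, measured 14.3, 10.6 and 16.0 FPKM in hindstomach and 0.136, 0.706 and 0.188 FPKM in forestomach (log2 difference 3.45 ± 0.31, adjusted p = 1.54e-05). Clic6, a chloride channel protein, measured 51.8, 46.5 and 65.0 FPKM in hindstomach and 5.73, 6.60 and 1.81 FPKM in forestomach (log2 difference 3.39 ± 0.34, adjusted p = 3.81e-05). The potassium channel genes Kcne2 (2.80, adjusted p = 4e-05), Kcnq1 (1.84, adjusted p = 0.000559) and Kcnj15 (2.97, adjusted p = 0.000108) were higher as well, each lowest in hindstomach control 3 and highest in control 4. The anion exchanger Slc26a7 ran the other way, at 0.364, 0.149 and 0.0806 FPKM in hindstomach and 1.43, 3.42 and 1.90 FPKM in forestomach (log2 difference -1.40 ± 0.30, adjusted p = 0.00506). So did the channel subunit Kcne3 (-1.04, adjusted p = 0.0414), whose call was lost without hindstomach control 2, 3 or 4, forestomach control 2 or 5 or hindstomach knockout 1 or 2 (adjusted p = 0.0508 to 0.137, leaving out each in turn). Of 20 enteroendocrine genes 5 were tested. Rfx6, a transcription factor of endocrine precursors, was higher (3.05, 5.62 and 3.10 FPKM in hindstomach and 0.0254, 0 and 0 FPKM in forestomach, log2 difference 2.25 ± 0.22, adjusted p = 3.17e-05). Scg5, a secretogranin-family chaperone also made by neurons, was the gene called lower (2.98, 6.75 and 1.69 FPKM in hindstomach and 10.4, 8.59 and 14.7 FPKM in forestomach, log2 difference -1.45 ± 0.39, adjusted p = 0.0205), a call lost without hindstomach control 2 or 4 or forestomach control 5 (adjusted p = 0.0662 to 0.102, leaving out each in turn). The hormone genes were barely detected, with gastrin, Gast, at 1.53, 2.07 and 0.219 FPKM in hindstomach and listed at 0 in forestomach.

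Enzymes that handle xenobiotics and steroids were mostly higher in hindstomach where they were called. Of 20 tested out of 26 listed, 11 were higher in hindstomach and 1 lower (median 1.55, and 8 higher and 1 lower without forestomach control 5, with a median of 1.30). Akr1c19 measured 148, 134 and 140.2 FPKM in hindstomach and 0.966, 1.61 and 2.19 FPKM in forestomach (log2 difference 5.80 ± 0.29, adjusted p = 1.87e-07). Its paralog Akr1c12 measured 124, 118 and 125 FPKM in hindstomach and 3.11, 3.24 and 2.20 FPKM in forestomach (log2 difference 5.01 ± 0.18, adjusted p = 7.49e-09). The sulphotransferase gene Sult1d1 measured 41.9, 52.7 and 51.1 FPKM in hindstomach and 0.0833, 0 and 0 FPKM in forestomach (log2 difference 5.59 ± 0.19, adjusted p = 6.44e-09). These 3 genes varied little among hindstomach libraries and showed no overlap with forestomach. Close copies exist for the Akr1c, Gstm and keratin families, and how fragments were divided between copies was not given in the sources used here. Gstm1, a glutathione transferase, measured 219, 199 and 253 FPKM in hindstomach and 13.0, 7.77 and 0.913 FPKM in forestomach (log2 difference 5.18 ± 0.86, adjusted p = 0.00105, and 4.33 without forestomach control 5). Nqo1, a quinone reductase, was the listed enzyme called lower (-1.10, adjusted p = 0.00411).

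A group of plasma protein genes, best known from liver, was also higher in hindstomach, 5 of 10 tested with 0 lower (median 1.37, 19 listed). Habp2, a hyaluronan-binding serine protease, measured 56.5, 44.8 and 70.5 FPKM in hindstomach and 0.0391, 0.119 and 0.0287 FPKM in forestomach (log2 difference 5.75 ± 0.41, adjusted p = 2.69e-06). Apoa1, the main apolipoprotein of high-density lipoprotein, measured 35.3, 21.6 and 51.4 FPKM in hindstomach and 0.632, 0.550 and 0 FPKM in forestomach (log2 difference 4.68 ± 0.45, adjusted p = 2.73e-05). The complement regulator Cfi measured 62.6, 35.5 and 89.2 FPKM in hindstomach and 0.448, 0.396 and 0.114 FPKM in forestomach (log2 difference 5.50 ± 0.38, adjusted p = 2.17e-06). The carboxypeptidase gene Cpn1 measured 64.0, 45.2 and 54.7 FPKM in hindstomach and 0.114, 0.371 and 0 FPKM in forestomach (log2 difference 5.58 ± 0.74, adjusted p = 0.000238). All 4 genes were free of overlap. Ttr, transthyretin, was at 27.5, 16.3 and 29.5 FPKM in hindstomach and 0.352, 0.4999 and 0.207 FPKM in forestomach (log2 difference 4.20 ± 0.51, adjusted p = 0.000124). The liver list as a whole had 4 genes tested, of which Ttr and Afp (2.21, adjusted p = 0.00502) were higher. The pancreas list had 2, of which Cela1 was called (0.83, adjusted p = 0.0416). That call was lost without hindstomach control 2 or 4, forestomach control 3 or 5, hindstomach knockout 1, 2, 3 or 4 or forestomach knock-in 1 (adjusted p = 0.0503 to 0.163, leaving out each in turn). Marker lists of lung and spleen had 0 and 0 genes past the filter on low values.

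Apical and junctional genes of columnar cells were higher in hindstomach. Of 18 tight junction and polarity genes 9 were higher and 0 lower (median 0.99, and 10 higher and 0 lower without forestomach control 5), and of 13 microvillus genes tested 8 were higher and 1 lower (median 1.47, 16 listed). Ocln, occludin, measured 49.9, 52.7 and 52.7 FPKM in hindstomach and 5.87, 15.7 and 8.09 FPKM in forestomach (log2 difference 2.38 ± 0.25, adjusted p = 4.51e-05). Hindstomach values were nearly equal across libraries, and the forestomach maximum, in control 3, stayed well below them. Myo1a, the brush border myosin, measured 13.5, 10.2 and 15.3 FPKM in hindstomach and 0.338, 0.331 and 0.0171 FPKM in forestomach (log2 difference 3.5 ± 0.40, adjusted p = 8.74e-05). Vil1, villin, the actin bundler of microvilli, measured 7.08, 7.88 and 7.01 FPKM in hindstomach and 0.0503, 0.0767 and 0.0184 FPKM in forestomach (log2 difference 2.99 ± 0.39, adjusted p = 0.000233). It was the gene called among 2 tested of the intestinal marker list. Prom1, a membrane protein of apical protrusions, differed by 1.93 (adjusted p = 1.08e-05), and Cobl, an actin nucleator, was the microvillus gene called lower (-0.76, adjusted p = 0.00688).

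The claudins were divided, with 4 of 12 tested higher in hindstomach and 4 lower (3 and 2 without forestomach control 5). Beside Cldn18, Cldn6, a claudin of embryonic epithelia, measured 278, 249 and 241 FPKM in hindstomach and 26.6, 46.4 and 5.13 FPKM in forestomach (log2 difference 3.68 ± 0.80, adjusted p = 0.00589). Cldn7 differed by 1.72 (adjusted p = 0.023) and Cldn9 by 1.33 (adjusted p = 0.0103). Lower were Cldn10 (-1.6, adjusted p = 0.0019), Cldn1, the barrier claudin of the epidermis (-1.62, adjusted p = 0.0197), Cldn8 (-1.28, adjusted p = 0.0162) and Cldn15 (-1.54, adjusted p = 0.0181). The Cldn1 call was lost without hindstomach control 2 or 4 or forestomach control 5 (adjusted p = 0.0618 to 0.0842, leaving out each in turn). The Cldn7 call was lost without hindstomach control 2 or 4 or forestomach control 5 (adjusted p = 0.0699 to 0.0788, leaving out each in turn). The Cldn8 call was lost without hindstomach control 4 or forestomach control 5 (adjusted p = 0.0572 to 0.0622, leaving out each in turn). The Cldn15 call was lost without hindstomach control 2 or 4 or forestomach control 2 (adjusted p = 0.0705 to 0.0715, leaving out each in turn). Of 17 pan-epithelial genes 2 were higher and 2 lower (median 1.06, and 0.29 without forestomach control 5), with a summed FPKM of 1714, 1442 and 1656 in hindstomach and 845, 1127 and 934 in forestomach. Epcam, an epithelial adhesion molecule, was higher (408, 349 and 388 FPKM in hindstomach and 121, 224 and 225 FPKM in forestomach, log2 difference 1.06 ± 0.27, adjusted p = 0.0157). The Epcam call was lost without hindstomach control 2 or 4 or forestomach control 2 (adjusted p = 0.0571 to 0.0579, leaving out each in turn). Cdh1, E-cadherin, was not called, at 149.7, 147 and 175 FPKM in hindstomach and 50.7, 162 and 98.2 FPKM in forestomach.

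Transcription factors of columnar endoderm were higher in hindstomach in 15 of 22 cases tested and lower in 0 (median 1.67, 27 listed). Gata4, the zinc-finger factor that the series targets, measured 65.7, 61.5 and 64.9 FPKM in hindstomach, against 4.50, 1.33 and 0.573 FPKM in forestomach (log2 difference 4.58 ± 0.52, adjusted p = 8.41e-05). Gata6, its paralog, measured 30.3, 23.3 and 33.6 FPKM in hindstomach and 12.1, 4.41 and 12.3 FPKM in forestomach (log2 difference 1.6 ± 0.32, adjusted p = 0.00335). Gata4 was thus uniform in hindstomach and spread over nearly a whole order of magnitude in forestomach, whereas Gata6 remained at moderate levels there. Hnf4a, a nuclear receptor of gut and liver epithelium, measured 20.8, 18.6 and 24.0 FPKM in hindstomach and 0.0620, 0.0180 and 0 FPKM in forestomach (log2 difference 4.43 ± 0.34, adjusted p = 4.52e-06). The orphan nuclear receptor Esrrg measured 38.4, 41.5 and 61.1 FPKM in hindstomach and 0.358, 0.147 and 0.127 FPKM in forestomach (log2 difference 5.28 ± 0.35, adjusted p = 1.53e-06), the largest difference on this list. Foxa3 (3.59, adjusted p = 8.82e-06), Hnf4g (2.79, adjusted p = 2.32e-06), Spdef, a factor of secretory cells (3.57, adjusted p = 0.00034), and Gata5 (3.14, adjusted p = 0.000642) were higher as well. Nr1i2, the pregnane X receptor, measured 9.79, 6.34 and 9.68 FPKM in hindstomach and Pdx1, a factor of antrum, duodenum and pancreas, 1.77, 1.95 and 1.17 FPKM in hindstomach, and both were listed at 0 in forestomach. Foxa1 was shared, at 100.05, 91.9 and 101 FPKM in hindstomach and 18.5, 28.1 and 43.8 FPKM in forestomach (log2 difference 1.75 ± 0.28, adjusted p = 0.000869). Foxa2 was not called, at 16.3, 15.0 and 12.2 FPKM in hindstomach and 8.63, 15.1 and 21.1 FPKM in forestomach. Leaving out forestomach control 5 lowered the count from this list to 14.

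Squamous and anterior foregut factors went mostly the other way, with 17 of 25 tested lower in hindstomach and 2 higher (median -1.5, 32 listed). Beside Trp63, Tfap2c, an AP-2 factor, measured 0.268, 0.182 and 0.0679 FPKM in hindstomach and 9.07, 15.6 and 9.67 FPKM in forestomach (log2 difference -3.38 ± 0.32, adjusted p = 2.64e-05). Bnc1, basonuclin, a zinc-finger protein of basal keratinocytes and also a mesothelial gene, measured 0.499, 1.49 and 0.341 FPKM in hindstomach and 10.3, 8.88 and 11.4 FPKM in forestomach (log2 difference -2.70 ± 0.34, adjusted p = 0.000154). Klf4, a factor of differentiating barrier epithelium, measured 10.1, 10.4 and 7.04 FPKM in hindstomach and 31.5, 47.1 and 48.8 FPKM in forestomach (log2 difference -2.08 ± 0.38, adjusted p = 0.00191). In these 3 genes forestomach control 5 lay with its group. Zfp750, a p63 target that drives keratinocyte differentiation, measured 1.19, 1.03 and 1.11 FPKM in hindstomach and 16.1, 16.3 and 6.32 FPKM in forestomach (log2 difference -2.62 ± 0.39, adjusted p = 0.000536). Control 5 lay below the other forestomach controls for Zfp750, for Grhl3 (-1.90, adjusted p = 0.0126) and for Barx2 (-2.07, adjusted p = 0.0216). The Grhl3 call was lost without forestomach control 2 (adjusted p = 0.0508) and the Barx2 call without hindstomach control 3 or 4 or forestomach control 2 or 3 (adjusted p = 0.0573 to 0.0816, leaving out each in turn). Pax9 (-1.14, adjusted p = 0.0152) and Gata3 (-1.57, adjusted p = 0.000225) were lower at low FPKM, the Pax9 call being lost without hindstomach control 2 or 4 (adjusted p = 0.0529 to 0.0618, leaving out each in turn). The 2 exceptions were Isl1 and Sox21. Isl1, a factor of the developing pylorus, measured 20.7, 16.4 and 14.3 FPKM in hindstomach and 3.76, 1.25 and 3.46 FPKM in forestomach (log2 difference 2.31 ± 0.32, adjusted p = 0.000347). Sox21 differed by 1.27 (adjusted p = 0.00472). Sox2, the anterior foregut factor found throughout the stomach, was not called, at 78.1, 78.5 and 64.2 FPKM in hindstomach and 67.2, 90.1 and 143 FPKM in forestomach.

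Keratins of stratified epithelium were lower in hindstomach for 6 of 7 tested and higher for 0 (median -3.82, and -5.0 without forestomach control 5), out of 13 listed. Of the 7 tested, 3 passed the filter only through the forestomach controls, so this count and median are descriptions. The summed FPKM of the list was 24.0, 20.5 and 20.5 in hindstomach and 1954, 1915 and 145 in forestomach. Krt15, a basal type I keratin, was the most abundant, at 18.0, 14.4 and 14.6 FPKM in hindstomach and 1245, 1273 and 104 FPKM in forestomach (log2 difference -5.05 ± 1.09, adjusted p = 0.00561, and -6.25 without forestomach control 5). Krt13 measured 0.310, 0.0645 and 0.729 FPKM in hindstomach and 287, 173 and 4.10 FPKM in forestomach (log2 difference -5.56 ± 1.15, adjusted p = 0.00444, and -7.38 without forestomach control 5). Its partner Krt4 measured 0.417, 0.429 and 0.573 FPKM in hindstomach and 52.2, 40.5 and 1.01 FPKM in forestomach (log2 difference -3.48 ± 0.96, adjusted p = 0.0222), a call lost without hindstomach control 2, 3 or 4 or forestomach control 2 or 3 (adjusted p = 0.0599 to 0.0857, leaving out each in turn). Krt6a, a keratin of activated and mucosal keratinocytes, measured 0.0560, 0 and 0.0340 FPKM in hindstomach and 24.7, 20.7 and 4.49 FPKM in forestomach (log2 difference -3.82 ± 0.48, adjusted p = 0.000175). In all of these forestomach control 5 was the lowest of its group and still above every hindstomach value. Krt15 and Krt5, both basal, thus exceeded the upper-layer pair Krt13 and Krt4 in FPKM in each forestomach library. Krt14, the usual partner of Krt5 in skin, did not pass the filter on low values, at 0.0423, 0.0863 and 0 FPKM in hindstomach and 4.52, 2.65 and 0.155 FPKM in forestomach. Simple keratins were present in both regions. Krt8 stood at 238, 180.1 and 244 FPKM in hindstomach and 152, 118 and 14.6 FPKM in forestomach. Krt19 stood at 122, 87.0 and 129 FPKM in hindstomach and 279.9, 248 and 8.59 FPKM in forestomach, neither called. The difference of Krt19 was 0.35 with all libraries and -1.24 without forestomach control 5. Of the 6 simple keratins tested, Krt20, the keratin of mature gastrointestinal surface cells, was called. It measured 0.143, 0.521 and 0.135 FPKM in hindstomach and 5.05, 4.23 and 1.48 FPKM in forestomach (log2 difference -1.77 ± 0.42, adjusted p = 0.00922). The median of the simple keratins was 0.36 with all libraries and -0.90 without forestomach control 5.

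Genes of squamous differentiation were lower in hindstomach for 11 of 16 tested and higher for 1 (median -2.60, 13 lower and 1 higher without forestomach control 5, 26 listed). Dapl1, a gene of stratified epithelia and hair follicles, measured 1.57, 1.24 and 1.22 FPKM in hindstomach and 75.2, 85.9 and 49.5 FPKM in forestomach (log2 difference -4.89 ± 0.48, adjusted p = 3.17e-05). Serpinb5, the serpin maspin, measured 0.355, 0.244 and 0.0987 FPKM in hindstomach and 26.2, 38.6 and 33.9 FPKM in forestomach (log2 difference -4.77 ± 0.56, adjusted p = 9.78e-05). For both genes control 5 was close to the other forestomach controls. S100a14, a calcium-binding protein of squamous cells, measured 8.81, 3.07 and 4.36 FPKM in hindstomach and 245, 181 and 28.7 FPKM in forestomach (log2 difference -4.20 ± 1.01, adjusted p = 0.011). Tgm1, the transglutaminase of the cornified envelope, measured 0.561, 0.480 and 0.457 FPKM in hindstomach and 36.5, 43.2 and 2.17 FPKM in forestomach (log2 difference -3.54 ± 0.82, adjusted p = 0.0087). For both, control 5 stood far below forestomach controls 2 and 3. Aqp3, a water and glycerol channel of basal keratinocytes, measured 1.93, 0.829 and 3.24 FPKM in hindstomach and 30.4, 68.7 and 27.3 FPKM in forestomach (log2 difference -3.80 ± 0.63, adjusted p = 0.000997). Envelope proteins that appear late were scarce, with loricrin, Lor, at 0.0625, 0.137 and 0 FPKM in hindstomach and 4.49, 1.73 and 4.23 FPKM in forestomach (log2 difference -2.01 ± 0.26, adjusted p = 0.000179) and involucrin, Ivl, under 1 FPKM in all 6 libraries. Capn6, a calpain-like protein without protease activity, was the gene of this list called higher (0.94, adjusted p = 0.00212).

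Desmosomal genes were divided by isoform. Pkp1, the plakophilin of stratified epithelium, measured 0.138, 0.0926 and 0.0819 FPKM in hindstomach and 28.9, 40.0 and 5.50 FPKM in forestomach (log2 difference -4.18 ± 0.65, adjusted p = 0.000708). Pkp2, the plakophilin of simple epithelium, went the other way and measured 12.4, 10.9 and 14.54 FPKM in hindstomach and 2.23, 1.98 and 3.16 FPKM in forestomach (log2 difference 1.99 ± 0.18, adjusted p = 1.59e-05). Dsg3, a desmoglein of squamous cells, was listed at 0 in the 3 hindstomach controls and measured 1.89, 6.89 and 2.01 FPKM in forestomach. Perp, a p63 target of desmosomes, measured 31.9, 18.4 and 27.3 FPKM in hindstomach and 263, 323 and 310.2 FPKM in forestomach (log2 difference -3.51 ± 0.47, adjusted p = 0.000268). The shared desmosomal plaque gene Dsp was not called, at 32.2, 34.5 and 39.2 FPKM in hindstomach and 37.9, 96.7 and 50.2 FPKM in forestomach, and 2 of 11 desmosomal genes were higher and 3 lower. Anchorage to the basement membrane showed a similar division, 5 of 18 higher and 4 lower (2 and 4 without forestomach control 5). Col17a1, the transmembrane collagen of hemidesmosomes, measured 0.464, 0.221 and 0.230 FPKM in hindstomach and 12.1, 45.5 and 7.28 FPKM in forestomach (log2 difference -3.72 ± 0.63, adjusted p = 0.00114). Lama1, a laminin chain of embryonic basement membranes, measured 5.95, 7.44 and 7.91 FPKM in hindstomach and 0.369, 0.605 and 0.0639 FPKM in forestomach (log2 difference 2.60 ± 0.32, adjusted p = 0.000125). A further laminin gene, Lamc1 (1.11, adjusted p = 0.0297), was called higher too, and its call was lost without hindstomach control 2, 3 or 4 or forestomach control 2 or 5 (adjusted p = 0.0652 to 0.101, leaving out each in turn).

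**Figure D3:**
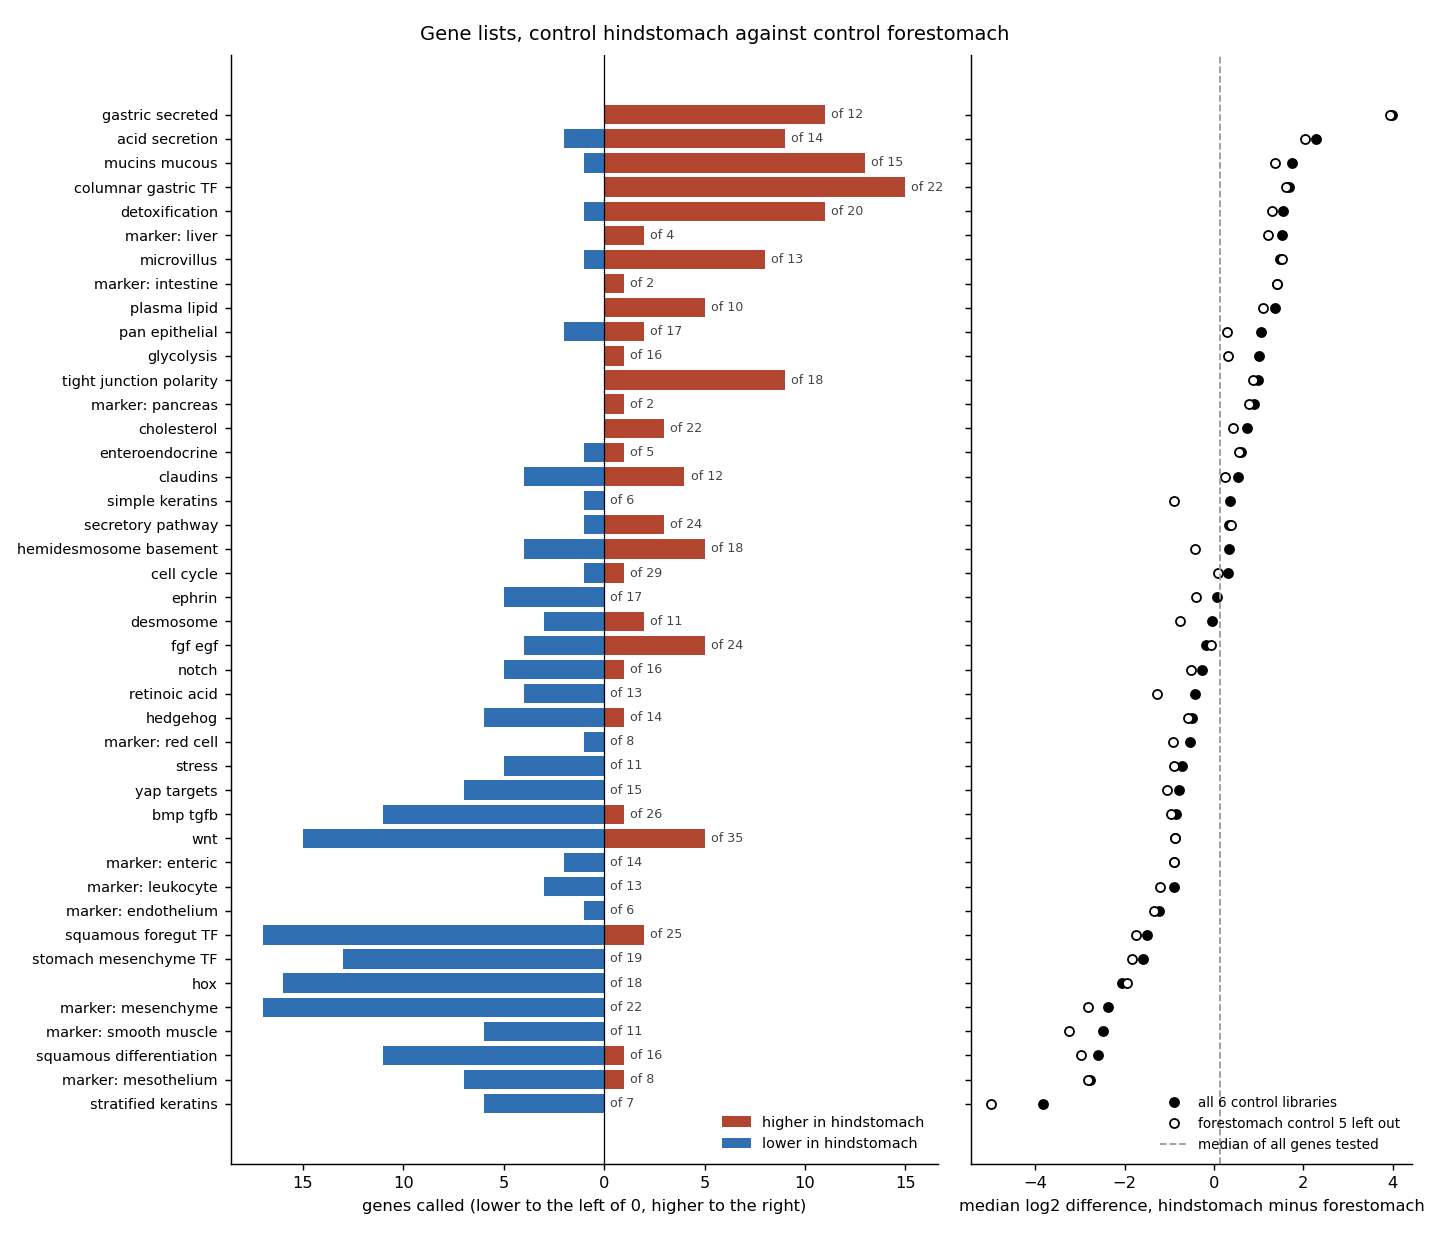
For each gene list, the number of tested genes called higher and lower in control hindstomach, and the median log2 difference, hindstomach minus forestomach, with all 6 control libraries and without forestomach control 5. The dashed line marks the median of all genes tested, 0.14, and the gastric secreted and squamous keratin lists lie at the extremes. Both of these lists hold genes that passed the filter only through the region where they were high.

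Markers of cells outside the epithelium were higher in the forestomach controls. Mesenchyme genes summed to 254, 447 and 136 FPKM in hindstomach and 2226, 1457 and 1927 FPKM in forestomach, and 17 of 22 tested were lower in hindstomach with 0 higher (median -2.36, and 19 lower without forestomach control 5). Lum, a proteoglycan of fibroblasts, measured 3.85, 6.05 and 2.86 FPKM in hindstomach and 120.1, 81.5 and 123 FPKM in forestomach (log2 difference -4.40 ± 0.74, adjusted p = 0.00115). Col1a2, a chain of fibrillar collagen, measured 15.8, 27.3 and 9.20 FPKM in hindstomach and 178, 114 and 235 FPKM in forestomach (log2 difference -3.33 ± 0.47, adjusted p = 0.000354). Cav1, the caveolar coat protein abundant in stromal and endothelial cells, measured 6.499, 11.5 and 2.91 FPKM in hindstomach and 123, 117 and 157 FPKM in forestomach (log2 difference -4.21 ± 0.53, adjusted p = 0.000163). In each gene forestomach control 5 lay with the other forestomach controls, and hindstomach control 3 held more Lum, Col1a2 and Cav1 than the other hindstomach controls. Smooth muscle genes summed to 58.3, 113 and 38.5 FPKM in hindstomach and 1286, 567 and 164 FPKM in forestomach (6 of 11 lower, and 11 without forestomach control 5). Mesothelial genes summed to 37.7, 43.0 and 34.7 FPKM in hindstomach and 182, 138 and 180.1 FPKM in forestomach (7 of 8 lower). Wt1, the mesothelial transcription factor, measured 1.08, 3.41 and 0.969 FPKM in hindstomach and 38.2, 17.6 and 56.8 FPKM in forestomach (log2 difference -3.73 ± 0.39, adjusted p = 4.55e-05). Msln, mesothelin, was the exception, at 26.9, 17.5 and 26.6 FPKM in hindstomach and 0.971, 0.813 and 0.0280 FPKM in forestomach (log2 difference 3.98 ± 0.54, adjusted p = 0.000298). In bulk samples, fewer cells of a type and less RNA per cell cannot be told apart.

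Smaller marker sums showed the same order. Endothelial genes summed to 9.72, 8.204 and 2.98 FPKM in hindstomach and 40.0, 25.0 and 20.2 FPKM in forestomach (1 of 6 lower, and 2 without forestomach control 5). Leukocyte genes summed to 16.7, 33.3 and 14.9 FPKM in hindstomach and 122, 40.1 and 71.3 FPKM in forestomach (3 of 13 lower, and 1 without forestomach control 5). Enteric neuron and glia genes summed to 55.6, 99.7 and 29.3 FPKM in hindstomach and 153, 127 and 173 FPKM in forestomach (2 of 14 lower). Forestomach sums were above hindstomach sums in these lists without overlap, although few single genes passed. Red cell genes overlapped, at 837, 768 and 1248 FPKM in hindstomach and 4108, 811 and 889 FPKM in forestomach, with forestomach control 2 far above the rest.

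**Figure D4:**
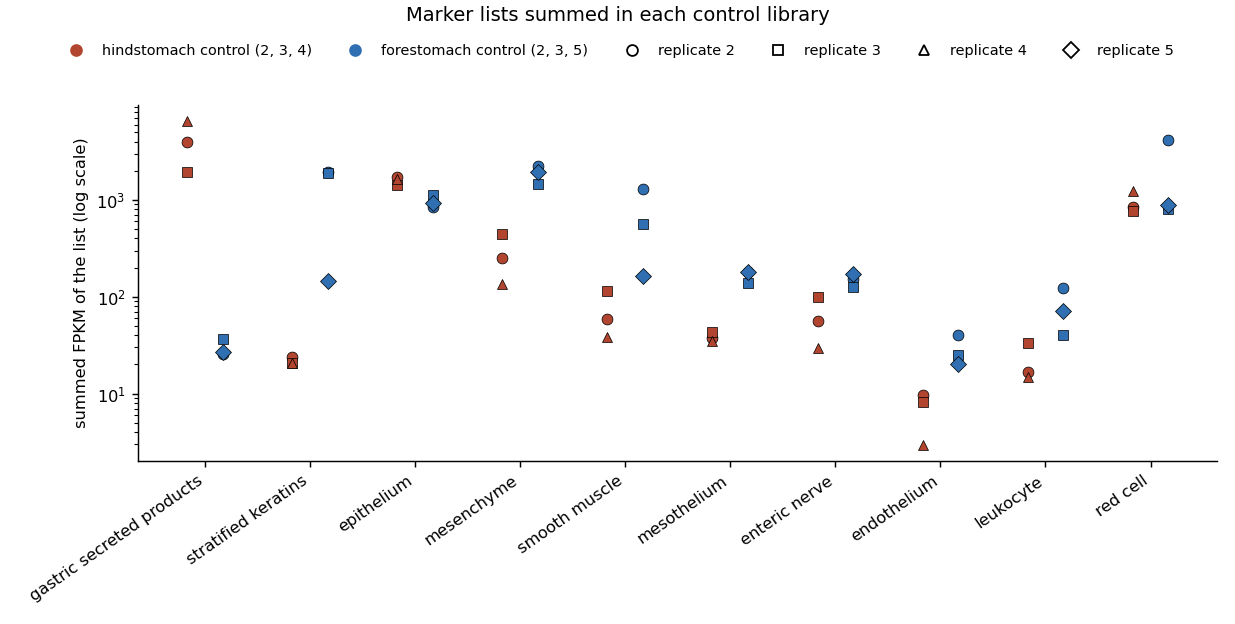
Summed FPKM of the marker lists of epithelium and of other cell types in each control library, hindstomach left of forestomach, on a log axis. The mesenchyme, smooth muscle and mesothelium sums of every forestomach control lie above those of every hindstomach control, and the pan-epithelial sums lie above the forestomach sums in every hindstomach control.

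Positional and mesenchymal transcription factors moved with these markers. Of 18 Hox genes tested, 16 were lower in hindstomach and 0 higher (median -2.05, 15 lower without forestomach control 5, 24 listed). Hoxc6 measured 0.461, 0.233 and 0.334 FPKM in hindstomach and 21.6, 29.1 and 13.6 FPKM in forestomach (log2 difference -4.0 ± 0.44, adjusted p = 5.93e-05). Hoxb6 measured 0.0879, 0.352 and 0.103 FPKM in hindstomach and 7.77, 5.02 and 4.68 FPKM in forestomach (log2 difference -2.51 ± 0.22, adjusted p = 1.21e-05), and Hoxc8 differed by -3.12 (adjusted p = 2.83e-06). Hoxc6 and Hoxc8 were lowest in hindstomach control 3, the hindstomach library with the largest mesenchyme sum, while Hoxb6 and Hoxb7 (0.415, 1.31 and 0.109 FPKM in hindstomach and 12.9, 10.3 and 22.7 FPKM in forestomach) were highest there. Of 19 stomach mesenchyme factors tested, 13 were lower and 0 higher (median -1.6, and 14 lower without forestomach control 5). Snai2, a repressor of epithelial adhesion genes also found in basal squamous cells, measured 2.37, 6.39 and 1.06 FPKM in hindstomach and 54.3, 35.2 and 56.3 FPKM in forestomach (log2 difference -3.71 ± 0.54, adjusted p = 0.000451). Twist1, a mesenchymal bHLH factor, measured 0.932, 0.755 and 0.325 FPKM in hindstomach and 15.2, 9.73 and 14.7 FPKM in forestomach (log2 difference -3.08 ± 0.33, adjusted p = 5.62e-05). Foxf1, a Hedgehog-responsive factor of gut mesenchyme, differed by -3.19 (adjusted p = 0.000765). Barx1, the homeobox factor of stomach mesenchyme, was not called, at 3.27, 8.83 and 1.70 FPKM in hindstomach and 31.5, 20.9 and 3.38 FPKM in forestomach, but was lower without forestomach control 5 (-2.47, adjusted p = 0.034). The part of the mesenchyme sums in these differences was not tested.

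Hedgehog genes differed in a ligand and in receiving components. Ihh, Indian hedgehog, measured 28.8, 25.1 and 23.3 FPKM in hindstomach and 0.0326, 0.0993 and 0 FPKM in forestomach (log2 difference 4.67 ± 0.63, adjusted p = 0.000269), with the groups far apart. Shh, Sonic hedgehog, was not called, at 39.6, 40.1 and 36.6 FPKM in hindstomach and 19.9, 51.0 and 67.7 FPKM in forestomach. Of 14 Hedgehog genes tested 1 was higher, Ihh, and 6 were lower. The lower ones were receiving components, among them the decoy receptor Hhip (-1.57, adjusted p = 0.00137) and the co-receptor Cdon (-1.04, adjusted p = 0.00614). Gas1, a further co-receptor, measured 4.37, 10.4 and 2.77 FPKM in hindstomach and 37.0, 33.3 and 78.8 FPKM in forestomach (log2 difference -2.94 ± 0.48, adjusted p = 0.00098). The target genes Ptch1 (4.84, 6.62 and 6.11 FPKM in hindstomach and 4.09, 5.60 and 1.25 FPKM in forestomach) and Gli1 (0.643, 0.563 and 0.0338 FPKM in hindstomach and 6.27, 2.44 and 0.389 FPKM in forestomach) were not called, although Gli1 was lower without forestomach control 5 (-1.85, adjusted p = 0.00472). Gli1 passed the filter on low values only through the forestomach controls, so that lower value is a description.

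Wnt pathway genes went in both directions. Of 35 tested 15 were lower in hindstomach and 5 higher (median -0.87, 18 lower without forestomach control 5, 41 listed). The higher genes were receptors and co-receptors. Fzd5 measured 31.0, 32.4 and 28.3 FPKM in hindstomach and 0.889, 1.08 and 0.827 FPKM in forestomach (log2 difference 4.03 ± 0.25, adjusted p = 7.61e-07). Lgr5, the R-spondin receptor of gut stem cells, measured 7.88, 7.36 and 10.7 FPKM in hindstomach and 0.188, 0.0996 and 0.323 FPKM in forestomach (log2 difference 2.99 ± 0.21, adjusted p = 2.21e-06). Lgr4 (1.22, adjusted p = 0.00278), Fzd7 (0.76, adjusted p = 0.0174) and Lrp6 (0.63, adjusted p = 0.0279) made up the rest, while the receptor genes Fzd1 (-1.09, adjusted p = 0.00199) and Fzd10 (-1.56, adjusted p = 0.000987) were lower. The Fzd7 call was lost without hindstomach control 3 or forestomach control 2 (adjusted p = 0.0672 to 0.0785, leaving out each in turn) and the Lrp6 call without hindstomach control 2, 3 or 4 or forestomach control 2 (adjusted p = 0.0635 to 0.0896, leaving out each in turn). Both Fzd5 and Lgr5 were tight within groups and did not overlap. Among the lower genes were the ligands Wnt2b (-2.08, adjusted p = 9.78e-05), Wnt4 (-2.66, adjusted p = 0.0172) and Wnt5a (-1.77, adjusted p = 0.00109) and the R-spondins, which amplify Wnt signals. Rspo1 measured 0.695, 1.92 and 0.677 FPKM in hindstomach and 16.7, 10.5 and 11.2 FPKM in forestomach (log2 difference -2.74 ± 0.32, adjusted p = 9.18e-05). Rspo2 (-2.62, adjusted p = 0.000625) and Rspo3 (-3.28, adjusted p = 0.000239) lay in the same direction. The Wnt4 call was lost without hindstomach control 3 or forestomach control 2 or 3 (adjusted p = 0.0611 to 0.0657, leaving out each in turn). The inhibitors Wif1 (-1.98, adjusted p = 8.41e-05), Sfrp1 (-2.15, adjusted p = 0.00867) and Sfrp2 (-3.08, adjusted p = 0.00092) were lower too. The effector gene Lef1 measured 0.186, 0.496 and 0.0831 FPKM in hindstomach and 3.82, 3.68 and 4.15 FPKM in forestomach (log2 difference -1.97 ± 0.21, adjusted p = 4.52e-05). Axin2, the general feedback target, was not called, at 1.80, 2.06 and 1.67 FPKM in hindstomach and 5.92, 5.22 and 2.27 FPKM in forestomach, but was lower without forestomach control 5 (-1.21, adjusted p = 0.00758). Many of the ligand and inhibitor genes are made by mesenchyme, whose marker sums differed as given above, and that part was not tested.

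BMP and TGF-beta genes were lower in hindstomach for 11 of 26 tested and higher for 1 (median -0.84, and 12 lower and 2 higher without forestomach control 5). Bmp4 measured 1.49, 2.79 and 0.942 FPKM in hindstomach and 27.4, 14.2 and 15.7 FPKM in forestomach (log2 difference -2.87 ± 0.28, adjusted p = 2.69e-05). Fst, follistatin, an antagonist of activin and BMP ligands, measured 1.90, 4.22 and 0.737 FPKM in hindstomach and 36.0, 34.7 and 78.3 FPKM in forestomach (log2 difference -3.99 ± 0.43, adjusted p = 5.51e-05), with control 5 the highest forestomach value. The receptor Bmpr1b was the gene called higher, at 10.6, 12.6 and 12.2 FPKM in hindstomach and 3.36, 3.21 and 5.66 FPKM in forestomach (log2 difference 1.36 ± 0.20, adjusted p = 0.000403). The antagonist noggin, Nog, was lower (-1.46, adjusted p = 0.00796). Among FGF and EGF genes 5 of 24 tested were higher and 4 lower (3 and 4 without forestomach control 5), with receptors in opposite directions. Fgfr4 measured 6.78, 6.05 and 6.38 FPKM in hindstomach and 0.249, 0.152 and 0.0183 FPKM in forestomach (log2 difference 2.70 ± 0.44, adjusted p = 0.000942). Fgfr2 measured 31.7, 36.0 and 24.4 FPKM in hindstomach and 61.8, 143 and 87.0 FPKM in forestomach (log2 difference -1.56 ± 0.32, adjusted p = 0.00412). Fgf7, a mesenchymal ligand of the epithelial Fgfr2 isoform, was lower (-2.16, adjusted p = 9.78e-05). Erbb3, an EGF family receptor, was higher (2.32, adjusted p = 0.0279) with a wide forestomach range of 0.494 to 12.0 FPKM. Its call was lost without hindstomach control 2, 3 or 4 or forestomach control 2 or 5 (adjusted p = 0.0575 to 0.0879, leaving out each in turn), and the difference was 1.5 without forestomach control 5.

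Of 16 Notch genes tested 5 were lower in hindstomach and 1 higher (median -0.26, and 0 higher without forestomach control 5). Nrarp, a feedback target, measured 3.31, 2.87 and 2.26 FPKM in hindstomach and 11.4, 9.08 and 6.72 FPKM in forestomach (log2 difference -1.38 ± 0.21, adjusted p = 0.000568). The ligand Jag2 differed by -1.34 (adjusted p = 0.00506) and the target Hes1 by -0.78 (adjusted p = 0.00826). The ligand Dll4 was called higher (0.75, adjusted p = 0.0253), a call lost without hindstomach control 3 or 4 or forestomach control 5 (adjusted p = 0.0504 to 0.123, leaving out each in turn). Retinoic acid genes were lower for 4 of 13 tested and higher for 0 (6 lower without forestomach control 5). Aldh1a2, the main embryonic enzyme of retinoic acid synthesis and also a mesothelial gene, measured 3.78, 10.8 and 2.60 FPKM in hindstomach and 53.9, 45.9 and 34.0 FPKM in forestomach (log2 difference -2.93 ± 0.46, adjusted p = 0.000738). Rarb, a retinoic acid receptor and target, measured 12.4, 14.6 and 9.23 FPKM in hindstomach and 31.0, 27.5 and 27.9 FPKM in forestomach (log2 difference -1.21 ± 0.18, adjusted p = 0.00056). Cyp26a1, the enzyme that degrades retinoic acid, differed by -1.99 (adjusted p = 0.000678). Hindstomach control 3, with the largest hindstomach mesenchyme sum, also held the most Aldh1a2 and Cyp26a1 of its group. YAP and TEAD genes were lower for 7 of 15 tested with 0 higher (8 lower without forestomach control 5), among them the coactivator Wwtr1, TAZ (-1.89, adjusted p = 0.000793). The receptor kinase gene Axl measured 6.34, 7.69 and 4.74 FPKM in hindstomach and 22.1, 27.3 and 24.5 FPKM in forestomach (log2 difference -1.84 ± 0.18, adjusted p = 2.82e-05). Ephrin genes were lower for 5 of 17 tested with 0 higher (median 0.07), and 1 was higher without forestomach control 5 (median -0.40). The lower ones included the receptor Epha4 (-0.99, adjusted p = 0.00386).

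Few cell cycle, sterol synthesis and glycolytic genes were called between the regions. The median differences of these lists were 0.31, 0.74 and 1.01, against 0.14 for all genes. Without forestomach control 5 they were 0.09, 0.42 and 0.32, against -0.05 for all genes. All 22 sterol synthesis genes had a difference above 0. With a GC slope covariate 8, 13 and 9 genes of the lists were called higher and 2, 0 and 0 lower. Few calls thus do not show that these lists differed little. Of 29 cell cycle genes tested 1 was higher and 1 lower. Mcm6, of the replicative helicase, measured 135, 128 and 134 FPKM in hindstomach and 75.5, 76.1 and 53.9 FPKM in forestomach (log2 difference 0.96 ± 0.18, adjusted p = 0.00211). Cdkn1c, the cyclin kinase inhibitor p57, measured 82.8, 82.9 and 64.6 FPKM in hindstomach and 228, 165 and 345 FPKM in forestomach (log2 difference -1.61 ± 0.27, adjusted p = 0.00103). Mki67, the proliferation antigen, was not called, at 49.9, 50.1 and 50.2 FPKM in hindstomach and 32.0, 45.7 and 54.9 FPKM in forestomach. Among sterol synthesis genes 3 of 22 were higher and 0 lower (2 higher without forestomach control 5), including the regulator Insig1 (1.01, adjusted p = 0.00195). Among glycolytic genes 1 of 16 was higher, Pgk1 (1.0, adjusted p = 0.0407), whose call was lost without hindstomach control 2, 3 or 4, forestomach control 2 or 5, hindstomach knockout 2 or 4 or forestomach knock-in 1 (adjusted p = 0.0543 to 0.143, leaving out each in turn). Immediate-early and heat-shock genes were lower for 5 of 11 tested and higher for 0, with Fos at 0.417, 0.343 and 0.493 FPKM in hindstomach and 4.53, 4.74 and 3.68 FPKM in forestomach (log2 difference -1.90 ± 0.25, adjusted p = 0.000197). Hspb1, a small heat-shock protein also made by squamous cells, measured 2.38, 1.63 and 1.23 FPKM in hindstomach and 149, 63.5 and 2.83 FPKM in forestomach (log2 difference -3.62 ± 1.07, adjusted p = 0.0303), a call lost without hindstomach control 2, 3 or 4 or forestomach control 2 or 3 (adjusted p = 0.0663 to 0.109, leaving out each in turn).

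The called genes with the highest FPKM were in part shared by both regions. After Cym, the hindstomach was led by Pgk1, the ubiquitin ligase gene Nedd4, Epcam and the RNA-binding protein gene Hnrnpf. Nedd4 measured 413, 435 and 443 FPKM in hindstomach and 254, 292 and 265 FPKM in forestomach (log2 difference 0.67 ± 0.13, adjusted p = 0.00299). Hnrnpf differed by 0.60 (adjusted p = 0.013), a call lost without hindstomach control 4 (adjusted p = 0.0598). Plac8 measured 337, 272 and 295 FPKM in hindstomach and 116, 59.3 and 26.3 FPKM in forestomach (log2 difference 2.38 ± 0.57, adjusted p = 0.0104), and its groups did not overlap. Slc25a5, the mitochondrial adenine nucleotide carrier, measured 306, 235 and 329.8 FPKM in hindstomach and 171, 134 and 115 FPKM in forestomach (log2 difference 1.05 ± 0.19, adjusted p = 0.00212). Atp1b1, a subunit of the sodium pump, measured 271, 219 and 298 FPKM in hindstomach and 26.9, 37.2 and 34.7 FPKM in forestomach (log2 difference 2.96 ± 0.21, adjusted p = 2.21e-06). Except for Cym, Plac8 and Atp1b1 these abundant genes differed by at most 1.06 on the log2 scale. In forestomach Krt15 led, followed by the spliceosome gene Snrpe (-0.91, adjusted p = 0.0359), the translation factor gene Btf3 (-0.49, adjusted p = 0.0402) and Anxa1. Anxa1, an anti-inflammatory annexin abundant in squamous epithelium, measured 143, 127 and 122 FPKM in hindstomach and 631, 577 and 439.5 FPKM in forestomach (log2 difference -2.05 ± 0.31, adjusted p = 0.000642). Cbr2, a carbonyl reductase, was among the genes with the largest difference, at 0.480, 0.131 and 0.141 FPKM in hindstomach and 50.8, 47.1 and 1.35 FPKM in forestomach (log2 difference -3.86 ± 0.96, adjusted p = 0.0128), although control 5 held hardly any and the call was lost without forestomach control 2 (adjusted p = 0.054). The Snrpe call was lost without hindstomach control 2, 3 or 4, forestomach control 2 or 5 or hindstomach knockout 1 (adjusted p = 0.0501 to 0.125, leaving out each in turn). The Btf3 call was lost without hindstomach control 2, 3 or 4, forestomach control 2 or 5, hindstomach knockout 1 or 3 or forestomach knock-in 1 (adjusted p = 0.0529 to 0.135, leaving out each in turn).

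Within the hindstomach group control 3 differed from controls 2 and 4 in a recognisable set of genes, picked after their values were seen. Nepn, nephrocan, a secreted leucine-rich protein, measured 19.0, 153 and 9.36 FPKM in hindstomach and 0.0224, 0.0455 and 0.0658 FPKM in forestomach (log2 difference 4.92 ± 1.27, adjusted p = 0.016). Control 3 was the highest hindstomach library by far, and all hindstomach values lay above the forestomach. The Nepn call was lost without hindstomach control 3 (adjusted p = 0.0707). Nkx6-3, a homeobox factor of antral and endocrine cells, measured 3.40, 13.3 and 3.29 FPKM in hindstomach and 0.108, 0.0364 and 0 FPKM in forestomach. Rfx6 and gastrin were highest in the same library, which held the least Cym, Anxa10, Ctse and Bpifb1. Its mesenchyme sum was the largest of the hindstomach group. The part of either in the other was not tested.

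The regional contrast was repeated in the 8 libraries labelled as mutants, which share no library with the controls. Both contrasts came from the same fit to all 14 libraries and share its estimate of the spread, so their calls are not independent. Gata4 measured 13.0, 19.4 and 59.6 FPKM as the lowest, median and highest of the 5 hindstomachs labelled knockout, and 0.319, 0.402 and 1.27 FPKM in the 3 forestomachs labelled knock-in. The FPKM of the gene thus did not bear out the knock-in label, and its regional difference was 3.97 (adjusted p = 0.000433). The highest value in the hindstomachs labelled knockout, 59.6 FPKM, lay near those of the hindstomach controls and did not bear out the knockout label either. The mutant libraries had GC slopes of -0.89 to 0.51 per 10% GC, below those of the hindstomach controls, and the part of this in the contrast was not tested. Between mutant regions 631 genes were higher in hindstomach (4.97%) and 216 lower (1.7%). These counts depended on single libraries and on scaling. The higher genes numbered 237, 230 and 1226 without the libraries labelled knock-in 1, 2 and 4, 398 and 356 without those labelled knockout 1 and 4, and 1140 without forestomach control 5. The lower genes numbered 88 and 135 without the libraries labelled knock-in 1 and 2, 127 without that labelled knockout 4, and 346 without forestomach control 5. Quantile normalization left 184 higher, and the overlaps that follow are given for the counts of 631 and 216 alone. Of the 1231 genes called higher between controls, 288 (23.4%) were also higher between mutant regions and 15 were lower. These 288 were 45.64% of the 631. Of the 1352 called lower, 119 (8.802%) were lower again, which is 55.09% of the 216, and 29 were higher. Both sets were selected on the control difference, which favours a smaller difference elsewhere. The median difference of the 1231 genes was 1.13 in controls and 0.46 in mutants, and that of the 1352 was -1.28 in controls and 0.0036 in mutants.

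The difference between the regional differences was itself tested. Controls minus mutants, it was called positive for 405 genes (3.19%) and negative for 967 (7.62%). The positive genes numbered 248 and 227 without hindstomach controls 2 and 4. The negative genes numbered 504 and 394 without hindstomach controls 2 and 4, 588 without forestomach control 2, 497 without the library labelled knock-in 2 and 444 after quantile normalization. Cym measured 63.3, 74.1 and 445 FPKM (lowest, median and highest) in hindstomach labelled knockout and 7.82, 8.69 and 76.8 FPKM in forestomach labelled knock-in. Its regional difference between mutants was 2.52 (adjusted p = 0.0786), against 10.87 between controls (difference of the differences 8.34 ± 1.18, adjusted p = 0.002). All 3 forestomachs labelled knock-in held more Cym than any forestomach control, and all 5 hindstomachs labelled knockout less than any hindstomach control. Tspan8 measured 84.9, 106 and 116 FPKM in hindstomach labelled knockout and 13.7, 17.9 and 36.0 FPKM in forestomach labelled knock-in, and remained regional at 2.24 (adjusted p = 0.000271, difference of the differences 4.28 ± 0.37, adjusted p = 6.87e-05). Krt5 did not pass between mutant regions, at 1.43, 1.995 and 4.12 FPKM in hindstomach labelled knockout and 0.959, 1.74 and 26.3 FPKM in forestomach labelled knock-in (-0.68, adjusted p = 0.612). Trp63 measured 4.72, 15.6 and 30.7 FPKM in hindstomach labelled knockout and 45.7, 47.0 and 54.4 FPKM in forestomach labelled knock-in (-1.86, adjusted p = 0.048), and its regional difference was not shown to differ from that of controls (adjusted p = 0.0616). Agr2 kept a regional difference of 4.57 (adjusted p = 0.000161) and Isl1 one of 2.80 (adjusted p = 0.000178). Lgr5 was the named gene of the Wnt list with opposite called directions, higher in hindstomach between controls and lower between mutants (-1.31, adjusted p = 0.00162, difference of the differences adjusted p = 1.27e-05). The mesenchyme sums of the mutants, 608 to 1508 FPKM in hindstomach labelled knockout and 349 to 858 FPKM in forestomach labelled knock-in, overlapped, unlike those of the controls.

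**Figure D5:**
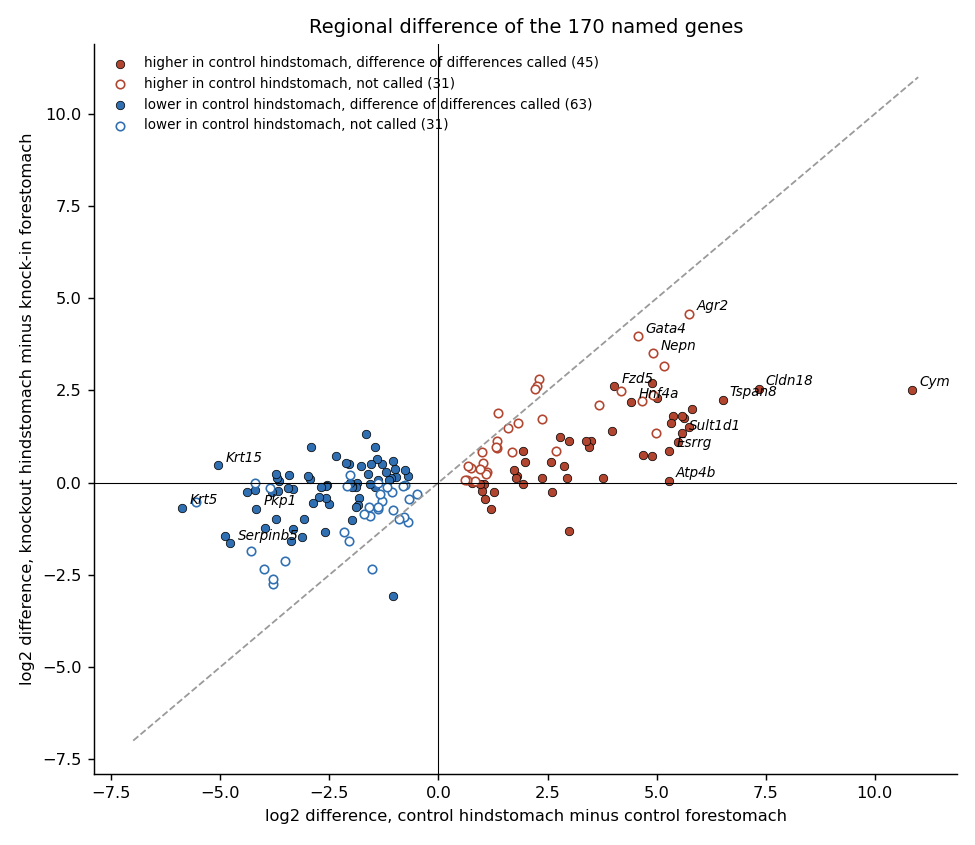
For the 170 named genes, the log2 difference between control hindstomach and control forestomach on the horizontal axis and between the hindstomach labelled knockout and the forestomach labelled knock-in on the vertical axis. Of the 76 genes higher between controls 45 differed from the mutant contrast, and of the 94 lower genes 63 did, with most points nearer to 0 on the vertical axis than on the horizontal one. Over all genes tested, the difference of the differences was called positive for 3.19% and negative for 7.62%. All named genes were called between controls, many for the largest differences, which favours a smaller difference elsewhere.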

How the data were processed

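RNA was sequenced from stomach epithelium of mouse embryos at stage E14.5 in 14 libraries. Per the labels' protocols, RNA was purified on NucleoSpin XS columns and strand-specific libraries were prepared with NEBNext Ultra II reagents. The authors deposited levels in FPKM, with a column per library and 22906 entries. Per the submitters' processing notes the build was mm9. The aligner, the program behind the FPKM values, the annotation and the use of strand were not given in the sources used here, and overlapping and antisense genes cannot be told apart from their partners. FPKM that fell with GC content in some libraries, relative to the mean of the 14, can shift differences of genes rich or poor in GC.

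Of the entries 108 were exact duplicates and were dropped, and of 22798 genes the 12694 with an FPKM of at least 1 in 3 or more of the 14 libraries were kept. Values were analysed as log2(FPKM + 1) without further scaling, and log2 differences share that scale, so changes of genes at low FPKM are understated. A mean per group was fitted to all 14 libraries with limma 3.58.1 in R 4.3.3 (lmFit, contrasts.fit, eBayes with trend and robust options, statmod 1.5.0). Values after ± are standard errors of log2 differences, and a call means a Benjamini-Hochberg adjusted p under 0.05 over all genes kept. Control regions, mutant regions and the difference between these contrasts were tested. The procedure was tested on simulated data before use.

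Relative depth was read from the commonest ratio of FPKM values under 0.1 in pairs of libraries, and absolute depth is unknown. At most 0.00569% of values were identical between any pair of libraries. GC content came from the GRCm38 annotation, matched for 99.3% of genes kept.

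The comparison, its members and the 44 gene lists were chosen with earlier results of these data known. Named genes were the 5 given markers, Gata4 and Gata6, the 20 largest differences and the 8 highest FPKM in each direction among called genes, and up to 3 called members per list and direction, 170 genes in all. Results of some of these are not reported here. Predicted genes, ribosomal pseudogenes, Xist and Y-linked genes were outside the rule. Other list members, and Gapdh, Xist, Eif2s3y, Gt(ROSA)26Sor and Nkx6-3, were named after their values were seen. Alternatives were other pseudocounts, filters and scalings, a GC slope covariate, a replicate block, array weights, the control libraries alone and leaving out each library.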

Additional observations from a re-analysis of the deposited data

Results flagged for a closer look

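For 16 of 22 genes examined, the 5 given markers, Gata4, Gata6 and the 10 largest control differences in each direction, the regional difference in controls differed from that in the libraries labelled as mutants, by limma's test of the difference itself at an adjusted p under 0.05. Among genes higher in control hindstomach, the difference of the differences, controls minus mutants on the log2 scale, was 8.34 for Cym, 4.79 for Cldn18, 4.28 for Tspan8, 3.81 for Akr1c19, 4.25 for Habp2, 3.88 for Anxa10, 4.25 for Sult1d1, 3.76 for Cpn1 and 4.40 for Cfi. Among genes lower there it was -5.19 for Krt5, -5.52 for Krt15, -3.45 for Dapl1, -3.12 for Serpinb5, -4.14 for Lum, -4.01 for Cav1 and -3.47 for Pkp1. Gata4 (0.61, adjusted p = 0.79), Gata6 (0.13, adjusted p = 0.978), Agr2 (1.17, adjusted p = 0.407), Trp63 (-2.44, adjusted p = 0.0616), Krt13 (-5.05, adjusted p = 0.0565) and S100a14 (-4.18, adjusted p = 0.0722) did not pass that test. The genes were selected for their control difference, which on its own favours a smaller difference elsewhere. Over all genes tested, the difference of the differences was called positive for 3.19% and negative for 7.62%.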

How the results depend on the processing

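No direction of a named gene was reversed under 28 alternatives, 138 of the 170 named genes were tested in each of them, and 101 of these kept their call throughout. Of the genes described, quantile normalization ended the calls of Btf3, Cldn1, Cldn8, Fzd7, Gcnt1, Kcne3, Lrp6, Nedd4, Nog, Pax9 and Snrpe, the same FPKM sum those of Btf3, Fzd7, Gcnt1, Hes1, Kcne3, Lrp6 and Snrpe, median of ratios those of Lrp6 and Snrpe, a pseudocount of 0.1 those of Cela1, Dll4, Hspb1 and Kcne3, and no filter that of Kcne3. Between control regions 1231 genes were higher and 1352 lower. The control libraries alone gave 662 and 769, a GC slope covariate 2893 and 2511, array weights (which did not converge) 2881 and 2989, a filter at FPKM of at least 5 left 807 lower, and leaving out each library gave 755 to 1353 and 777 to 1411. After the data were seen, the 5 controls without forestomach control 5 were fitted alone (1910 and 2214), and the GC slope was fitted without it (2470 and 2129). Between mutant regions (631 and 216) the GC slope gave 2080 and 592, the GC slope without forestomach control 5 1720 and 489, array weights 6087 and 1989, median of ratios 368 and 346, quantile normalization 184 higher, a filter at FPKM of at least 5 414 higher, and leaving out each library 230 to 1226 and 88 to 346. The difference of the differences (405 and 967) became 1173 and 2276 with the GC slope, 912 and 1724 with it and without forestomach control 5, 1949 and 4557 with array weights, 263 and 493 at FPKM of at least 5, 444 negative after quantile normalization, 623 negative at the same FPKM sum, and 227 to 449 and 394 to 1274 leaving out each library. The causes were not tested.

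With a replicate block the control regions gave 610 and 759 calls, the mutant regions 113 and 51, and the difference of the differences 74 and 61. Deviations of same-numbered controls correlated at 0.284 for replicate 2 and -0.145 for replicate 3. Those of differently numbered controls correlated at -0.218 to 0.171. So few pairs cannot settle whether the numbers pair the libraries. Depth is unknown, 3 libraries per control group limit precision, and region cannot be told apart from cross.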

Other observations

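The Rosa26 transcript Gt(ROSA)26Sor was higher in all hindstomach libraries than in the forestomach libraries other than control 5, whatever their mutant label. Region and cross are the same split here and cannot be told apart. It measured 34.8, 38.2, 46.4, 26.9 and 21.4 FPKM in the libraries labelled knockout 1 to 5, near the hindstomach controls, and 2.69, 1.84 and 3.81 FPKM in knock-in libraries 1, 2 and 4, against 0.591 and 1.01 FPKM in forestomach controls 2 and 3 and 28.0 FPKM in forestomach control 5. Eif2s3y, a Y-linked gene, measured 0.0804, 52.9, 48.4, 0 and 0.0544 FPKM in the libraries labelled knockout and 81.6, 72.3 and 50.2 FPKM in those labelled knock-in. The sexes inferred from such transcripts were not balanced between the groups, and their part in the regional differences was not tested. The antral and endocrine factor Nkx6-3 measured 0.144, 0.272, 0.0366, 8.27 and 7.79 FPKM in the libraries labelled knockout and was listed at 0 in all 3 labelled knock-in. The ribosomal protein gene Rps19 measured 588, 435 and 499 FPKM in hindstomach controls and 1024, 516 and 19.9 FPKM in forestomach controls, so that forestomach control 5 held far less of it than any other control. It measured 23.6, 47.0, 14.8, 135 and 376 FPKM in the libraries labelled knockout and 11.1, 8.01 and 83.1 FPKM in those labelled knock-in. Gapdh measured 5.615, 11.5, 4.49, 47.6 and 136 FPKM in the former and 2.68, 2.245 and 22.8 FPKM in the latter. Low values of both genes were thus not particular to forestomach control 5. Their part in the comparison of controls with mutants was not tested.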
